A study of Mus musculus with 25 samples.

Results

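The comparison described here is that of sorted CD4 T cells of miR-150 knock-in mice with those of wild-type mice at the naive stage, taken from the sample titles, over all genes. It used 8 of the 25 libraries of the series, 4 knock-in naive and 4 wild-type naive, and 14703 of 46078 genes passed the filter on low counts and were tested. All mice were of the C57BL/6NTac strain. Naive names the stage, that of mice in which experimental autoimmune encephalomyelitis (EAE), a disease of the central nervous system used to model multiple sclerosis, had not been induced. The other libraries were knock-out naive cells and cells of the 3 genotypes at day 7 after EAE induction. They entered the statistical model and are quoted only beside a result. The labels give the genotype as ki and wt. They state neither how the knock-in allele was built, where it sits or what drives it, nor whether each library stands for its own mouse. The p-values therefore rest on a spread between libraries that could be technical. The cells were a bulk sort, so fewer cells of a type and less RNA per cell cannot be told apart.

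MicroRNAs are short RNAs that guide Argonaute proteins to matching sites in messenger RNAs and lower their translation and stability. miR-150 is made from the Mir150 gene and is abundant in resting mature lymphocytes, where the transcription factor gene Myb is its best known target. In a T cell that meets a stimulus or a stress, immediate early genes such as the AP-1 subunits Jun and Fos are switched on without new protein synthesis. Heat shock genes are switched on by the factor HSF1 and encode chaperones that keep proteins folded.

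Total counts ran from 6454287 to 45739082 in knock-in libraries and from 6024043 to 9351180 in wild-type libraries, so low values are less certain in wild-type cells. An exact permutation test, two-sided, gave p = 0.114 for the difference in total counts (adjusted p = 0.733 over 11 library measures, higher than every wild-type library in 3 of 4 knock-in libraries), where the smallest p that 4 against 4 libraries allow is 0.0286. Ribosomal and other structural RNA genes took 18.4% ± 0.508 of counts in knock-in and 18.2% ± 1.296 in wild-type libraries (SD, n = 4 each). The 10 CD4 T cell markers summed to 2606 to 2769.6 CPM (counts scaled to each library's total) in knock-in and 2662 to 2733 CPM in wild-type libraries. Those of CD8, NK and gamma-delta T cells summed to 74.8 to 88.8 CPM in knock-in and 79.8 to 87.7 CPM in wild-type libraries, and those of B cells to 156 to 211.2 CPM in knock-in and 168 to 205.9 CPM in wild-type libraries. Cd4 itself was at 474 ± 9.69 CPM in knock-in and 477 ± 24.2 CPM in wild-type cells, with Cd8a at 1.56 ± 1.66 CPM in knock-in and 0.976 ± 0.683 CPM in wild-type cells (SD, n = 4 each). The values fit the CD4 label in both groups. Knock-in libraries 1 and 2 stood apart from the other 6 over 1 stretch of chromosome 15, described last, and results are given without them where they rest on these libraries.

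Mir150 was read first, as the gene the genotypes concern. Mir150 (ENSMUSG00000065495, chromosome 7, 45121757 to 45121821, mm10, plus strand) was at 12.9, 14.1, 13.9 and 16.2 CPM in the 4 knock-in libraries and at 24.5, 23.9, 17.9 and 14.4 CPM in the 4 wild-type libraries. Knock-in cells did not hold more of this RNA: 3 of the 4 wild-type libraries lay above every knock-in library and 1 lay among them. The log2 fold change was -0.50 (SE 0.30, edgeR adjusted p = 0.9995). It was -0.64 to -0.40 without 1 library at a time, and -0.51 to -0.07 in the other alternatives. In wild-type libraries the level fell in the order of the library numbers in the titles, and in knock-in libraries it did not. Among libraries of nearby number, the log2 ratio of knock-in library 1 to wild-type library 2 was -0.89. That of knock-in library 2 to wild-type library 4 was -0.03. In knock-out naive cells the gene gave 0 counts in all 4 libraries, which puts the knock-in mean of 14.3 CPM at least 536-fold higher, taking 3 counts over the knock-out group as the limit and for counting error only. These libraries read longer RNA at the gene. They hold no direct measure of the mature microRNA, and a knock-in copy whose transcript was not assigned to this gene would not be seen. The 11 tested protein-coding genes within 100 kb of Mir150 had log2 fold changes from -0.66, for the low-abundance gene Prrg2, to 0.08, and none had an unadjusted p under 0.05.

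Myb was at 28.9, 26.0, 39.1 and 23.5 CPM in knock-in and at 34.1, 39.6, 34.9 and 35.3 CPM in wild-type libraries, a log2 fold change of -0.27 (SE 0.19, adjusted p = 0.9995). Knock-in library 3 was the second highest of the 8 and the other 3 knock-in libraries the lowest. Of 18 tested genes on the list of Mir150 and reported miR-150 targets, 0 passed the test and 0 had an unadjusted p under 0.05. Their median log2 fold change was 0.03, against -0.0013 over all genes tested. Cxcr4, a chemokine receptor, was at 0.76 (SE 0.48, adjusted p = 0.9995) and rested on knock-in library 3, which held 51.1 CPM against 12.1 to 22.9 CPM in the other 3. Without that library its log2 fold change was 0.04. The tumour suppressor Trp53 was at 0.09 (SE 0.07, adjusted p = 0.9995). Of 12 tested genes of microRNA processing and silencing, 0 passed the test, with a median of 0.05. Ago2, the slicing Argonaute, was at 0.14 (SE 0.06, unadjusted p = 0.0308, adjusted p = 0.9995) and Ago1 at 0.10 (SE 0.07, adjusted p = 0.9995).

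The comparison over all genes asks what the knock-in genotype changed in CD4 T cells before immunization. edgeR called 2 genes, which is 0.0136% of those tested, and both rose: Jun and Junb, subunits of the AP-1 transcription factor. No gene was called lower. At an unadjusted p under 0.05, 168 genes were higher (1.14%) and 165 lower (1.12%), 333 in all (2.26%). In 267 genes every knock-in library was above every wild-type library (1.82%), and in 1.4% of genes every knock-in library was below every wild-type library. The number called depended on the model. With only the 8 libraries in the model edgeR called 11 genes, 10 higher and 1 lower, and DESeq2 called 6, all higher. Beside Jun and Junb both of these called Ppp1r15a, Dusp1 and Hsp90aa1. Other models called Jun without Junb. limma voom called Jun, Hsp90aa1, Hsp90ab1 and Hspa8 (Junb adjusted p = 0.0833), and edgeR with library number as a covariate called Jun alone (Junb adjusted p = 0.224). In simulated data of this comparison, with 200 genes changed, the model called 40.3% of genes changed 1.5-fold and 84.8% of those changed 4-fold. The adjustment of p is less strict where more genes are changed, so these shares need not hold for the real comparison.

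**Figure D1:**
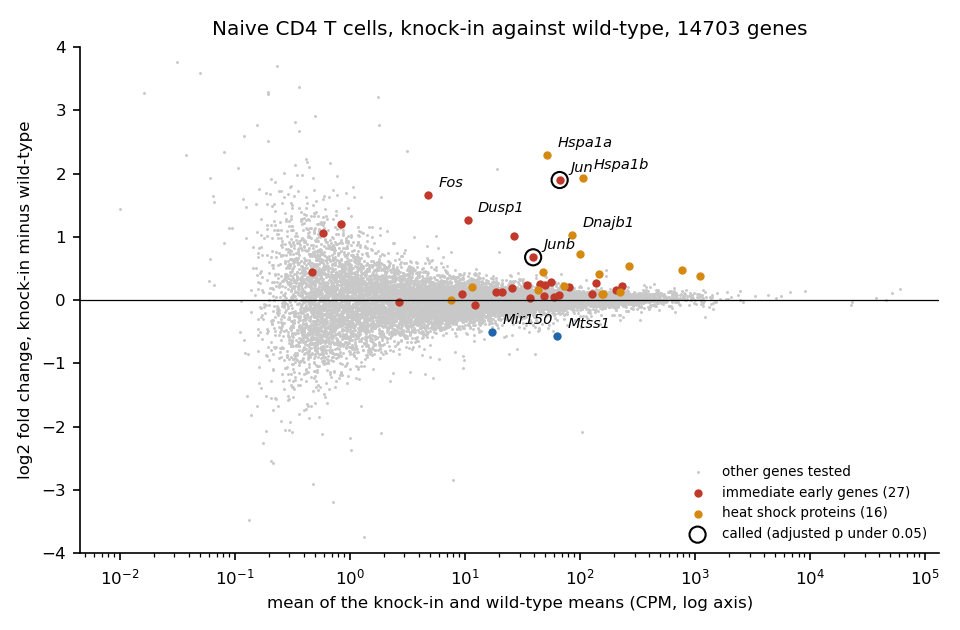
Log2 fold change, knock-in minus wild-type, of the 14703 genes tested (vertical axis) against the mean of the knock-in and wild-type means in CPM (log axis), with 10 genes outside the plotted range of 4 either side of 0. The genes called are ringed, immediate early genes are red, heat shock proteins are orange, and Mir150 and Mtss1 are blue; Jun at 1.90 and Junb at 0.68 lie above the cloud together with several heat shock genes.

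Sequence just before the annotated start of 4 of the genes that follow is shown here, because immediate early and heat shock genes lead the comparison. The stretches are from RefSeq (GRCm38.p6), read 5′ to 3′ on the gene's strand, and hold only bases outside annotated exons. They are chr4:95052223-95052372 for Jun, chr8:84978749-84978898 for Junb, chr17:26508520-26508622 for Dusp1 and chr17:34972157-34972306 for Hspa1a, all on the minus strand. Of the 150 bases before the Dusp1 start, the 47 nearest to it lie in an annotated Dusp1 exon and were left out. The Dusp1 stretch also lies within the longer span that the mm10 annotation gives the gene (26505590 to 26562128). Capitals mark TGACGTCA, the cyclic AMP response element, and GAANNTTC, a pair of inverted units of the heat shock element.
Jun: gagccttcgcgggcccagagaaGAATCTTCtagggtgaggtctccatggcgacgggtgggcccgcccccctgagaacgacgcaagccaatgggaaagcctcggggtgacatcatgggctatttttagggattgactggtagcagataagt
Junb: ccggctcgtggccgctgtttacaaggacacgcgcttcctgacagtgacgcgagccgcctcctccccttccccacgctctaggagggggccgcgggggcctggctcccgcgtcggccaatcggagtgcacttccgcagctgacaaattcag
Dusp1: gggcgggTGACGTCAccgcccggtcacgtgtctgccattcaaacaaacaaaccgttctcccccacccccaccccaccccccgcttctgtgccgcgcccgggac
Hspa1a: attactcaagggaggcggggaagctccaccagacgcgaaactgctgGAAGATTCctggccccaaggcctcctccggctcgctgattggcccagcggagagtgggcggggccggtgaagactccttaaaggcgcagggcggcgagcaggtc
Both motifs, and TTCNNGAA, the other arrangement of the heat shock unit, read the same on both strands. They were chosen with the results known. In the 150 bases before the start, TGACGTCA lies in 1.36% of all 32851 promoters of the table, GAANNTTC in 3.95% and TTCNNGAA in 4.21%. Of the 22 immediate early genes with a promoter in the table, Dusp1 and Ppp1r15a held TGACGTCA, Jun held GAANNTTC and Egr2 held TTCNNGAA. Of the 12 heat shock genes with one, 6 held GAANNTTC and 3 held TTCNNGAA. Hspd1 and Hspe1 are in both of these counts. Their annotated spans overlap on opposite strands, so the same sites may be counted for both genes. Hspa1a and Hspa1b, near-identical copies, are both among those with GAANNTTC. The counts are therefore not all of separate promoters. A match is a description of the letters and does not show that a factor binds there.

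Jun (ENSMUSG00000052684, chromosome 4, 95049034 to 95052222, mm10, minus strand) was at 149.9, 90.3, 62.4 and 122 CPM in knock-in libraries and at 19.3, 19.2, 28.7 and 44.5 CPM in wild-type libraries. The lowest knock-in library lay above the highest wild-type library, and within each group the levels spread by more than 2-fold. The means were 106 ± 37.98 CPM in knock-in and 27.9 ± 11.9 CPM in wild-type cells (SD, n = 4 each), a log2 fold change of 1.90 (3.73-fold, SE 0.29, edgeR adjusted p = 0.00913). Leaving out 1 library at a time gave 1.67 to 2.23, with adjusted p from 0.00134 to 0.125. The call was lost without wild-type library 1, 2 or 3 (adjusted p = 0.125, 0.0970 and 0.0770) and without knock-in library 1 (0.101).

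Junb was at 53.6, 47.3, 38.2 and 55.4 CPM in knock-in libraries and at 29.7, 32.1, 29.2 and 29.9 CPM in wild-type libraries. The wild-type libraries lay within 3 CPM of each other and all 4 knock-in libraries lay above them. Its log2 fold change was 0.68 (SE 0.12, adjusted p = 0.0345), from 0.62 to 0.78 without 1 library at a time. The call held without knock-in library 3 (adjusted p = 0.00212) and was lost without any other library (adjusted p up to 0.352).

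Of 27 tested immediate early genes, 2 rose and 0 fell by the test, and 25 had a log2 fold change above 0, where 49.7% of all genes did. The 8 with an unadjusted p under 0.05 were all higher, where 1.14% of all genes were higher at that p. In 6 every knock-in library was above every wild-type library, where 1.82% of all genes were so. The median was 0.23, against -0.0013 over all genes tested. Ppp1r15a, which directs a phosphatase to the translation factor eIF2α after stress, was at 48.2, 33.9, 23.3 and 37.0 CPM in knock-in libraries and at 18.4, 17.7, 16.1 and 18.5 CPM in wild-type libraries, a log2 fold change of 1.01 (SE 0.20, adjusted p = 0.129). Dusp1, which encodes a MAP kinase phosphatase, was at 21.0, 10.8, 10.97 and 17.5 CPM in knock-in libraries and at 5.49, 4.83, 6.12 and 8.35 CPM in wild-type libraries, a log2 fold change of 1.26 (SE 0.26, adjusted p = 0.182). In both genes the groups did not overlap, and the adjusted p missed the threshold. Without knock-in library 3 it was 0.00499 for Ppp1r15a and 0.0469 for Dusp1.

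Fos, the partner of Jun in AP-1, was at 13.1, 4.47, 4.38 and 7.44 CPM in knock-in libraries and at 1.73, 2.01, 1.53 and 4.02 CPM in wild-type libraries (log2 fold change 1.65, SE 0.62, adjusted p = 0.9995). Knock-in library 1 held the highest level, and the lowest knock-in library was only slightly above the highest wild-type library. Jund, another Jun protein, present in resting cells, differed less (0.28, SE 0.12, adjusted p = 0.9995), with knock-in libraries at 141 to 178 CPM and wild-type libraries at 108 to 139 CPM. Ier2 was at 0.24 (SE 0.11) and the RNA-binding protein gene Zfp36l1 at 0.16 (SE 0.07), both with groups that overlapped and adjusted p = 0.9995. Nr4a1, a nuclear receptor gene that T cell receptor signals induce, was at 0.19 (SE 0.20, adjusted p = 0.9995), with 21.8 to 35.4 CPM in knock-in and 19.3 to 28.7 CPM in wild-type libraries. Of 20 tested genes of T cell receptor signalling, 0 passed the test and the median was 0.0016. Of 15 tested genes of NF-kappaB subunits and feedback, 0 passed the test and the median was 0.04.

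**Figure D2:**
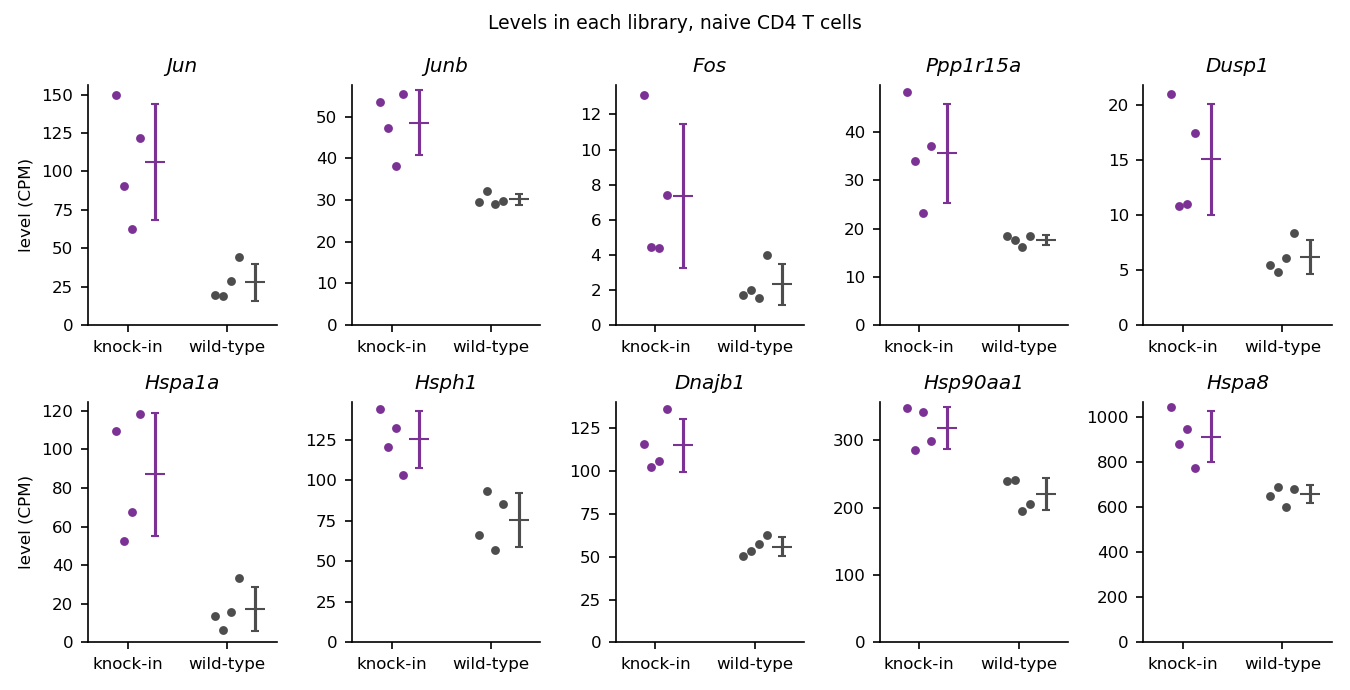
Level in CPM (vertical axes, from 0) of 10 genes in each of the 4 knock-in (left, purple) and 4 wild-type (right, grey) naive libraries, with mean and SD beside the points. In all 10 genes the knock-in libraries lie above the wild-type libraries; Jun and Junb passed the test and the other 8 did not.

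Heat shock genes were higher as a list in knock-in cells, without a call of their own. Of 16 tested, 0 were called by edgeR over all 25 libraries, all 16 had a log2 fold change above 0 (15 with RLE size factors, where the co-chaperone gene Bag3 was at -0.0011), and 10 had an unadjusted p under 0.05, all higher, where 1.14% of all genes did. In 9 every knock-in library was above every wild-type library, where 1.82% of all genes were so. The median log2 fold change was 0.40. With only the 8 libraries in the model 6 of them were called higher, where 10 of all 14703 genes were. Summed over the list, levels were 4399, 3659, 3994 and 3661 CPM in knock-in libraries and 2999, 2999, 2580 and 2852 CPM in wild-type libraries, and these did not overlap. Summed levels in knock-in cells were also higher without overlap for immediate early genes, microRNA machinery, glycolysis and uptake, and the BCL2 family. They were lower without overlap for T follicular helper genes. The lowest knock-in and highest wild-type library were at 1489.1 and 1383.2 CPM for immediate early genes. The gap was small for microRNA machinery (2079.3 and 2072.2 CPM), glycolysis and uptake (1674.2 and 1666.9 CPM) and the BCL2 family (681.69 and 676.14 CPM). For T follicular helper genes the highest knock-in library was at 401.77 CPM and the lowest wild-type library at 402.21 CPM.

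Among cytosolic chaperones, Hsp90aa1, the inducible HSP90, was at 347, 286, 342 and 298 CPM in knock-in libraries and at 239.9, 241, 195 and 204.7 CPM in wild-type libraries (0.53, SE 0.12, adjusted p = 0.231). The constitutive HSP90 gene Hsp90ab1 was at 1273 ± 136 CPM in knock-in and 974 ± 125 CPM in wild-type cells (SD, n = 4 each; 0.39, SE 0.09, adjusted p = 0.318). Hspa8, the constitutive HSP70, was at 1044, 881, 944 and 775 CPM in knock-in libraries and at 651, 691, 602 and 680.0 CPM in wild-type libraries (0.47, SE 0.11, adjusted p = 0.350). In all 3 genes every knock-in library lay above every wild-type library. The co-chaperone Dnajb1 was at 116, 102, 106 and 136 CPM in knock-in libraries and at 50.2, 53.3, 57.2 and 62.9 CPM in wild-type libraries (1.03, SE 0.26, adjusted p = 0.751). Hsph1, a large chaperone that recycles HSP70, was at 0.74 (SE 0.19, adjusted p = 0.751), with 104 to 144 CPM in knock-in and 56.8 to 93.5 CPM in wild-type libraries.

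The stress-induced HSP70 genes Hspa1a and Hspa1b differed most and were also the most variable. Hspa1a was at 109.7, 52.5, 67.8 and 118 CPM in knock-in libraries and at 13.7, 6.18, 15.9 and 33.5 CPM in wild-type libraries (2.29, SE 0.85, adjusted p = 0.9995). Hspa1b was at 207.5, 115, 139.6 and 216.5 CPM in knock-in libraries and at 34.7, 20.01, 46.9 and 73.3 CPM in wild-type libraries (1.93, SE 0.76, adjusted p = 0.9995). The same libraries were high and low in both, and since the genes are near-identical copies the split of reads between them is uncertain. With only the 8 libraries in the model both were called (adjusted p = 0.00560 for Hspa1a and 0.00470 for Hspa1b).

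The mitochondrial chaperonin pair Hspe1 (0.44, SE 0.13) and Hspd1 (0.22, SE 0.09) did not overlap between groups either, with adjusted p = 0.9995 for both. Their annotated spans overlap on opposite strands, so shared reads are possible. Dnaja1 was at 0.42 (SE 0.14, adjusted p = 0.9995), with groups that overlapped. The mitochondrial HSP70 gene Hspa9 (0.09, SE 0.07), the endoplasmic reticulum HSP90 gene Hsp90b1 (0.13, SE 0.07) and Hsf1 (0.17, SE 0.10) overlapped between groups and had adjusted p = 0.9995.

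Library numbers in the titles offer a partial check, since most knock-in libraries carry later numbers than the wild-type libraries. Only 2 sets of 4 consecutive numbers held 1 library of each group. Their knock-in libraries are 1 and 2, the pair that stands apart over chromosome 15, so the ratios within sets hold no measurement of knock-in libraries 3 and 4. In these sets, Jun was higher in the knock-in library by a log2 ratio of 2.96 and 1.02, Junb by 0.74 and 0.66, and the heat shock list had a median of 0.47 and 0.28 with 15 of 16 genes above 0 in each. The immediate early list had a median of -0.04 with 13 of 27 genes above 0 in the first set, and of 0.15 with 24 of 27 in the second. With the sets as a block, Jun was at 1.84 and Junb at 0.61 (edgeR adjusted p = 0.0923 for both). With library number as a covariate, Jun was at 1.80 (adjusted p = 0.0316) and Junb at 0.61 (adjusted p = 0.224), and the medians were 0.36 for the heat shock list and 0.17 for the immediate early list. The labels do not say what the numbers record.

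At day 7 after EAE induction, in other libraries, neither Jun nor Junb was called between the genotypes. Jun was at 296 ± 73.4 CPM in knock-in (n = 4) and 259 ± 73.0 CPM in wild-type cells (n = 5), a log2 fold change of 0.19 (SE 0.25, adjusted p = 0.999), and Junb was at 0.03 (SE 0.10, adjusted p = 0.999). edgeR called 0 genes of knock-in against wild-type at day 7 (684 at an unadjusted p under 0.05, 4.65%; 351 of them higher, 2.39%, and 333 lower, 2.26%). The immediate early list had a median of -0.03 there, with 12 of 27 genes above 0, and the heat shock list of -0.12, with 3 of 16 above 0. The difference between the stages was tested as an interaction. It called 0 genes by edgeR, with 558 at an unadjusted p under 0.05 (3.8%), of which 274 were above 0 (1.86%) and 284 below (1.93%). DESeq2 called 1 and limma voom 2. For Jun the interaction was -1.71 (SE 0.39, adjusted p = 0.359), for Hsph1 -1.16 (SE 0.25, adjusted p = 0.359) and for Dnaja1 -0.93 (SE 0.19, adjusted p = 0.359). Of the 16 heat shock genes 15 had an interaction below 0, 11 of them with an unadjusted p under 0.05, and of the 27 immediate early genes 24 and 9 did.

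**Figure D3:**
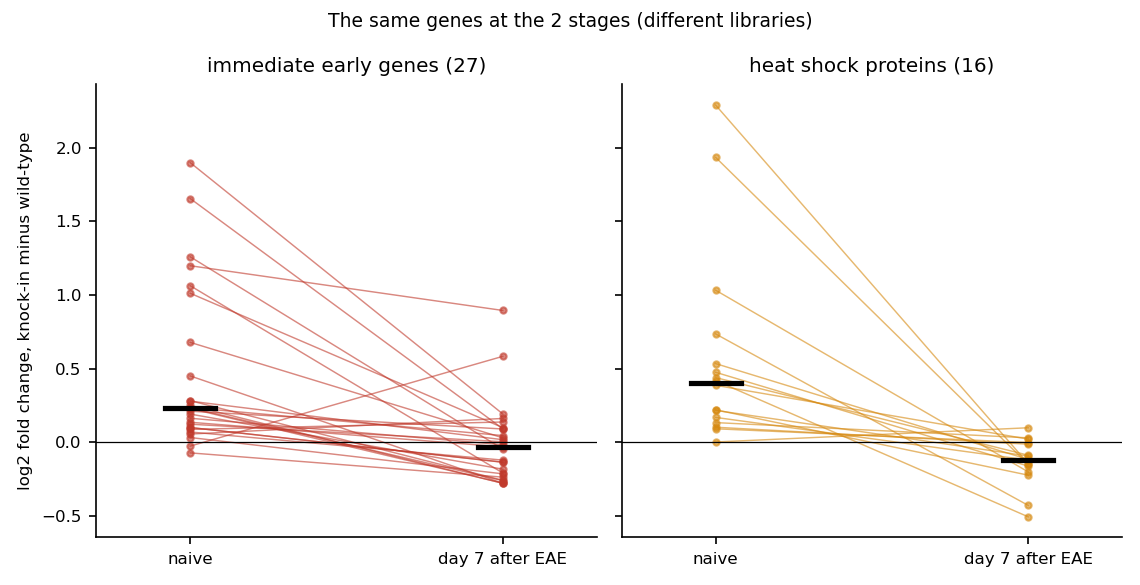
Log2 fold change, knock-in minus wild-type (vertical axis), of 27 immediate early genes (left) and 16 heat shock proteins (right) in naive cells and at day 7 after EAE induction; lines join the same gene and black bars are medians. The medians are 0.23 and 0.40 in naive cells and -0.03 and -0.12 at day 7, and no gene's difference between the stages passed the edgeR test.

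Knock-out naive cells, which share the wild-type naive controls, are set beside these values. Jun was at 55.0, 49.9, 23.8 and 43.8 CPM in knock-out libraries (0.61 against wild-type, SE 0.29, adjusted p = 0.659) and Junb at 0.33 (SE 0.12, adjusted p = 0.514). The heat shock list had a median of 0.03 in knock-out against wild-type cells and the immediate early list of 0.16. Of the 27 immediate early genes, 23 were above 0 there, and 6 had an unadjusted p under 0.05, all higher. Over all 14703 genes, 586 were higher at that p. Of the 16 heat shock genes, 10 were above 0, and 2 had an unadjusted p under 0.05, both lower. Immediate early levels summed to 1443.2, 1400.3, 1294.6 and 1533.2 CPM in knock-out libraries. These overlapped both the wild-type range (1204.3 to 1383.2 CPM) and the knock-in range (1489.1 to 1626.9 CPM). edgeR called 3 genes in knock-out against wild-type naive cells (0.0204%).

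Genes with the lowest p on the other side did not pass the test. They are the 10 with the smallest p among genes of at least 5 CPM whose groups did not overlap. Zkscan8, a zinc finger gene, was at 33.5, 34.4, 36.7 and 31.7 CPM in knock-in libraries and at 47.4, 42.6, 45.2 and 44.5 CPM in wild-type libraries (-0.39, SE 0.10, adjusted p = 0.751). The groups did not overlap and the spread within each was small. Parl, a protease of the inner mitochondrial membrane, was at -0.31 (SE 0.10), Tnfrsf25, the death receptor DR3 of T cells, at -0.29 (SE 0.10), and Klhl12, an adaptor of a ubiquitin ligase, at -0.30 (SE 0.09), each with adjusted p = 0.9995. The others were Ankrd16 (-0.23), Nrde2 (-0.34), Carf (-0.49), Cyp4f13 (-0.30), Gtpbp10 (-0.52) and Mtss1 (-0.57), also with adjusted p = 0.9995. On the higher side, the 10 genes with the smallest p by the same rule were Jun, Junb, Ppp1r15a, Dusp1, 5 heat shock genes and Baz1a, a chromatin remodelling subunit (0.47, SE 0.12, adjusted p = 0.751). Baz1a rested in part on knock-in library 2, at 274 CPM against 155 to 204.8 CPM in the other 3, and was at 0.28 without it.

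Interferon-stimulated genes were mostly lower, by an amount that depended on the model. Of 40 tested, 0 passed the test, 34 had a log2 fold change below 0 (36 with RLE size factors, 28 with library number as a covariate and 23 with the sets as a block), 2 had an unadjusted p under 0.05, both lower, and in 0 did the groups separate. The median was -0.31, -0.13 with the covariate and -0.02 with the block. Ifit1, an antiviral sensor of RNA ends, was at 19.2, 55.6, 26.2 and 16.4 CPM in knock-in libraries and at 76.9, 28.7, 78.8 and 28.4 CPM in wild-type libraries (-0.85, SE 0.42, adjusted p = 0.9995). Knock-in library 2 and wild-type libraries 1 and 3 were high and the other 5 low, so the levels varied within each group. Within the sets of consecutive numbers the list medians were -0.17 and 0.48, of opposite sign. Ifi44 was at -1.16 (SE 0.54) and Mx2, annotated as a polymorphic pseudogene, at -1.07 (SE 0.52), both with adjusted p = 0.9995.

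Lists of T cell state held 0 called genes. Naive T cell genes had a median of -0.04 over 18 genes. In this list the anti-proliferative gene Btg1 was at 0.25 (SE 0.07, adjusted p = 0.9995). Activation and effector genes had a median of -0.08 over 22 genes, and regulatory T cell genes of 0.05 over 13, where the integrin Itgae was higher without overlap (0.35, SE 0.27, adjusted p = 0.9995). The median was -0.46 over 11 Th1 genes, -0.10 over 8 Th2 genes, -0.11 over 12 Th17 genes (0.03 with library number as a covariate) and -0.16 over 12 T follicular helper genes. Over the 5 Th1 genes left by a stricter filter on low counts the median was -0.06, and over all 11 it was -0.07 without wild-type library 2 and -0.87 without knock-in libraries 1 and 2. Hopx, in the Th1 list, was at 3.41 ± 1.45 CPM in knock-in and 5.21 ± 0.578 CPM in wild-type cells (SD, n = 4 each; -0.55, SE 0.29, adjusted p = 0.9995). Slamf6, a receptor in the T follicular helper list, was at 104 ± 6.78 and 124 ± 9.81 CPM in knock-in and wild-type cells (SD, n = 4 each; -0.25, SE 0.12, adjusted p = 0.9995), and the nuclear receptor Rora in the Th17 list at -0.46 (SE 0.23, adjusted p = 0.9995).

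Ribosomal protein genes showed a small shift without a call: all 49 tested had a log2 fold change above 0, where 49.7% of all genes did. All 49 were also above 0 with RLE size factors. The median was 0.10, with 0 called and 0 with an unadjusted p under 0.05, and in 0 of the 49 did the groups separate. Summed over the list, levels were 26204, 27929, 27464 and 26592 CPM in knock-in libraries. In wild-type libraries they were 27500, 24436, 24704 and 24988 CPM, so the groups overlapped through wild-type library 1. With the number sets as a block the median was 0.17 and 20 of the 49 had an unadjusted p under 0.05, all higher, with 0 called. Over all 14703 genes, 181 were higher at that p with the block. Without knock-in libraries 1 and 2, 43 of the 49 were above 0. Glucocorticoid-responsive genes had a median of 0.25 over 13 genes, 0 of them called, and share Dusp1 with the immediate early list. This median was 0.07 with library number as a covariate, 0.04 with the block and 0.03 without knock-in library 3. The clock gene Per1, in this list, was at 48.5, 46.2, 47.9 and 48.0 CPM in knock-in libraries and at 36.4, 37.1, 38.8 and 32.1 CPM in wild-type libraries (0.40, SE 0.11, adjusted p = 0.9995). Its groups did not overlap and its spread within each was small. The survival gene Mcl1 of the BCL2 family was higher without overlap (0.16, SE 0.07, adjusted p = 0.9995), in a list with a median of 0.04 over 14 genes and 0 called. The median was 0.07 over 22 genes of glycolysis and uptake, where the amino acid transporter Slc38a2 was at 0.20 (SE 0.08, adjusted p = 0.9995). It was 0.01 over 35 respiratory chain subunits, -0.07 over 12 mitochondrially encoded genes, 0.06 over 22 genes of cholesterol synthesis, 0.01 over 40 cell cycle genes, 0.02 over 28 of cytokine receptor signalling and 0.01 over 19 of the PI3K, Akt, mTOR and Foxo pathway, with 0 called in each.

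**Figure D4:**
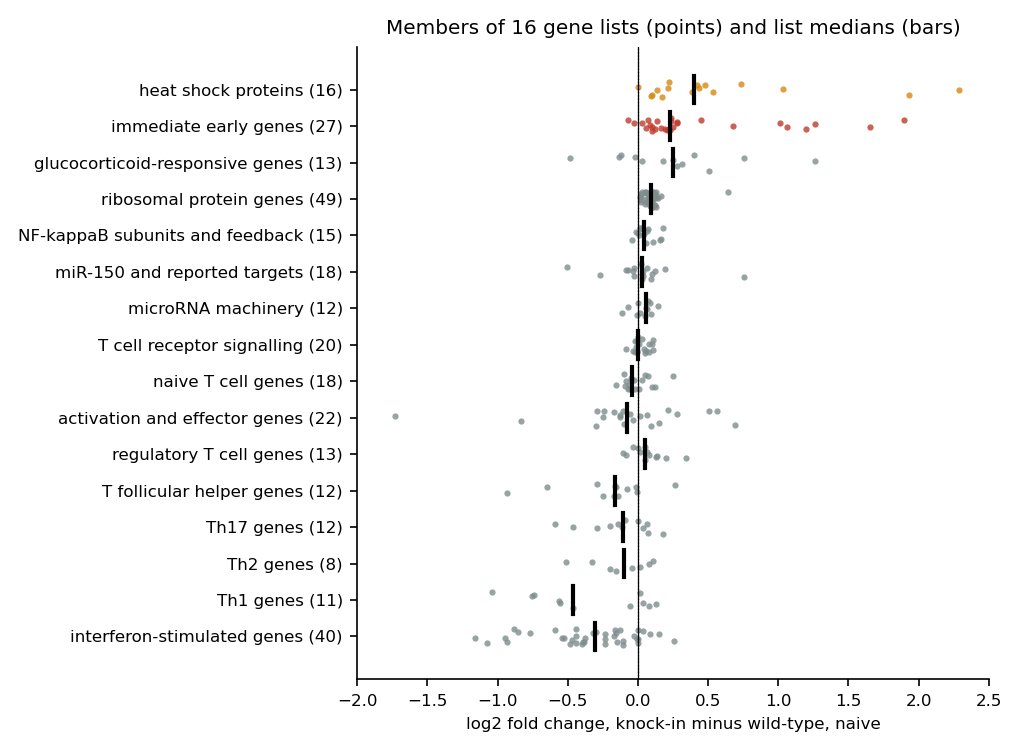
Log2 fold change, knock-in minus wild-type naive (horizontal axis), of each tested member of 16 gene lists (points, spread vertically for legibility) with the list median as a black bar and the number of genes tested in brackets. The heat shock median is 0.40, the immediate early median 0.23 and the interferon-stimulated median -0.31; the dotted line is the median of all genes, at -0.0013.

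Markers of other cell types gave 0 called genes. The medians were -0.02 for CD4 T cells (10 genes), -0.15 for CD8, NK and gamma-delta T cells (14), 0.16 for B cells (18), -0.24 for myeloid cells (8) and 0.46 for erythroid cells and platelets (6). Of these, the B cell median was -0.13 with library number as a covariate, -0.03 with the block and -0.02 with limma voom. The erythroid and platelet median was -0.14 with limma voom, 0.01 without knock-in library 4 and -0.04 over the 3 genes left without haemoglobin. Neither has a direction that held across models. The CD4 T cell and myeloid medians also changed sign, each in 1 alternative, and reached 0.0004 and 0.04. The macrophage gene Lyz2 was at 0.763, 1.84, 0.178 and 0 CPM in knock-in libraries and at 4.08, 3.49, 4.12 and 0.515 CPM in wild-type libraries (-2.11, SE 0.88, adjusted p = 0.9995). Summed myeloid markers were at 14.7 to 18.8 CPM in knock-in and 14.6 to 25.9 CPM in wild-type libraries, and Ly6g was at 0 in all 8. The part of other cell types in the results above was not tested.

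The last result concerns single libraries, and was found by taking, along each chromosome, the median over 10 neighbouring genes of the log2 ratio of a library to the median of the other 11 naive libraries. Of 8376 such windows per library over 8556 genes, 35 passed 0.4 in either direction, a limit chosen after the values were seen. They fell in knock-in library 1 (16), knock-in library 2 (17) and wild-type library 1 (2), and none in the other 5. All those of the knock-in libraries overlapped 1 stretch, from Zhx2 to Fam84b on chromosome 15 (57694665 to 60853778, mm10, 3.16 Mb), and the outermost windows ran past its ends. Over the 18 genes of the scan in that stretch, the median log2 ratio was -0.80 in knock-in library 1 and -1.02 in knock-in library 2, with all 18 genes below 0 in both. It was 0.08 in knock-in library 3 and 0.05 in knock-in library 4, and between -0.06 and 0.12 in the 4 wild-type libraries. The 20 genes that flank the stretch had medians from -0.06 to 0.06 in all 8 libraries. In linear terms the genes stood at 0.572 and 0.493 of the other libraries' level in knock-in libraries 1 and 2.

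Single genes show the same split. Mtss1, which binds actin and membranes, was at 32.5 and 34.5 CPM in knock-in libraries 1 and 2, at 71.9 and 68.2 CPM in knock-in libraries 3 and 4, and at 75.5, 78.4, 74.5 and 76.9 CPM in wild-type libraries. Fbxo32, a ubiquitin ligase gene, was at 14.5, 11.3, 25.6 and 22.5 CPM in knock-in libraries and at 31.6, 24.2, 26.6 and 26.5 CPM in wild-type libraries. Zhx1, Fam91a1 and Nsmce2 followed the same pattern, with 36.5 and 30.1, 26.5 and 25.6, and 9.61 and 5.43 CPM in knock-in libraries 1 and 2. Knock-in libraries 3 and 4 were at the wild-type level or just below in these genes. As a group comparison the stretch gave 26 of 27 tested genes below 0 with a median of -0.49, 9 with an unadjusted p under 0.05, all lower, where 1.12% of all genes were so, and 0 called. These genes were picked for being low in knock-in libraries 1 and 2, so the counts are a description. Without those libraries 17 of 27 were below 0, with a median of -0.10 and 1 with an unadjusted p under 0.05. The median of -0.49 averages over knock-in libraries that differ and is not a level that any of the 4 had. In day 7 libraries the median over the 18 genes was between -0.16 and 0.04 in knock-in and between -0.05 and 0.03 in wild-type libraries, relative to the other day 7 libraries. Without knock-in library 3, Mtss1 passed the test (-0.80, edgeR adjusted p = 0.0469). Without knock-in libraries 1 and 2, edgeR called 0 genes, with 108 higher and 113 lower at an unadjusted p under 0.05; Jun was at 1.67 (adjusted p = 0.513), Junb at 0.61 (adjusted p = 1.0) and the heat shock median was 0.37, with 14 of 16 genes above 0.

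**Figure D5:**
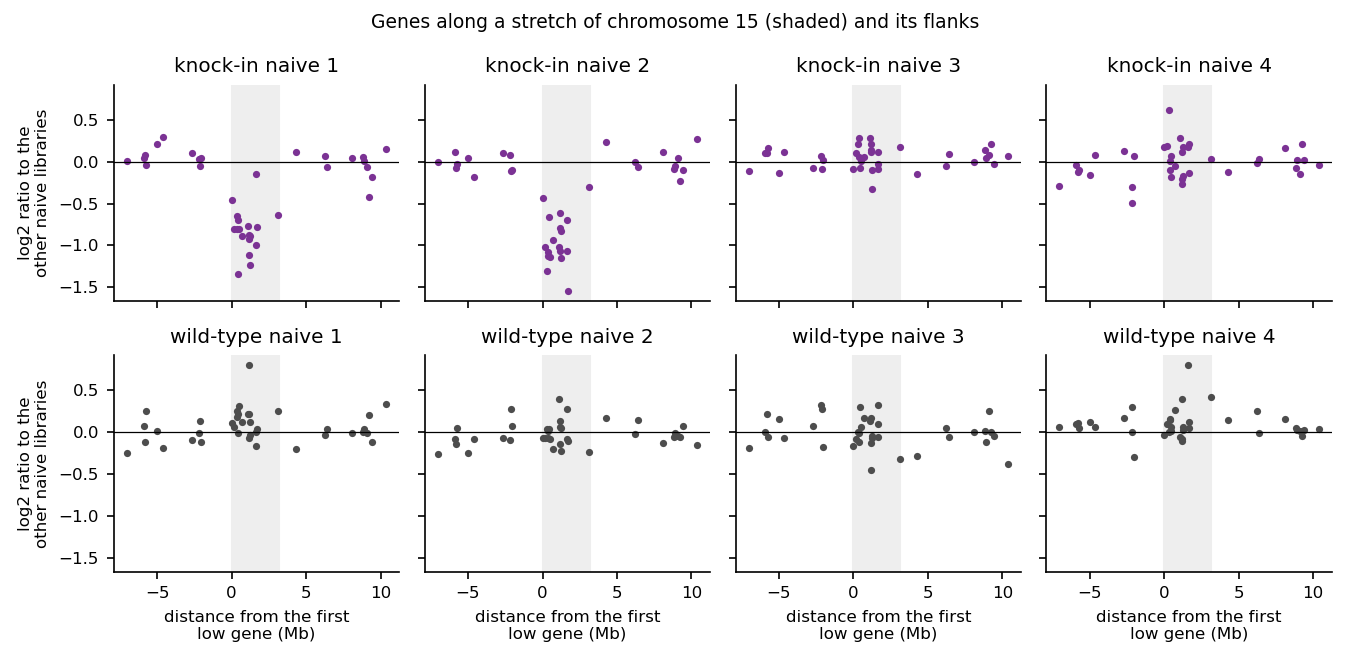
Log2 ratio of each gene to the median of the other naive libraries (vertical axis) against the distance of its start from the first low gene in Mb (horizontal axis), in the 4 knock-in libraries (top) and the 4 wild-type libraries (bottom); the stretch is shaded. All 18 genes in it are below 0 in knock-in libraries 1 and 2, at medians of -0.80 and -1.02, and the medians of the 20 flanking genes are between -0.06 and 0.06 in every panel.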

How the data were processed

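Sorted CD4 T cells were measured by total RNA sequencing, with a SMARTer stranded kit for small inputs of total RNA, per the labels' protocols. The authors deposited 1 table of raw read counts per Ensembl gene for 25 libraries. The submitters' processing notes name mm10 and DESeq2; the aligner, the counting tool, its strand setting and the annotation are not given in the sources used here. Since strand use is not stated, overlapping and antisense genes may share reads. Symbols and positions came from an mm10 annotation, which named 45229 IDs and left 849 without a symbol; these IDs held at most 0.0673% of a library's counts.

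Groups were taken from the sample titles. Genes were kept by filterByExpr (minimum count 10, total 15), which left 14703 genes, and fitted over 6 groups with TMM scaling and the quasi-likelihood test of edgeR 4.0.16 (R 4.3.3), with Benjamini-Hochberg adjustment over all of them and a threshold of 0.05. CPM use the same scaling. Fold changes are log2 of knock-in over wild-type. Common biological variation was 0.210. DESeq2 1.42.0 and limma 3.58.1 gave alternatives. Replicates differed by more than sampling noise, and intervals and limits from counts cover counting error only. The test was checked on simulated counts with 200 of 14703 genes changed, where it called 40.3%, 50.7% and 84.8% of genes changed 1.5-fold, 2-fold and 4-fold, and 5 unchanged genes. Total RNA from Mir150 does not measure the mature microRNA.

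The comparison, lists and tests were chosen with earlier results of these data known, so a list's direction is not independent evidence. Genes were named by rule: Mir150, Myb, called genes, the 10 with the smallest p in each direction at 5 CPM or more without overlap of groups, up to 3 members of each list by p, and neighbours of Mir150. Fos, Jund, Zfp36l1, Ier2, the heat shock genes beyond the first 3 that the ranking does not name, the marker genes and the chromosome 15 genes other than Mtss1 were named after their values were seen.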

Additional observations from a re-analysis of the deposited data

Results flagged for a closer look

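Of 188 groups of 4 values checked, 4 held a library far from the other 3 (2.13%), where chance gives about 1 in 20. Activation and effector genes summed to 667.81 CPM in knock-in library 3, against 628 to 635 CPM in the other 3 knock-in libraries. Ier2, an immediate early gene, was at 56.3 CPM in wild-type library 2, against 40.9 to 43.5 CPM in the other 3 wild-type libraries. Gtpbp10 was at 7.12 CPM in wild-type library 2, against 8.48 to 8.66 CPM in the other 3. Genes of cholesterol synthesis summed to 549.65 CPM in wild-type library 4, against 479 to 485 CPM in the other 3.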

How the results depend on the processing

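The number of genes called in knock-in against wild-type naive cells, 2 by edgeR, was 59 with no filter on low counts (32 higher, 27 lower), 11 with only the 8 libraries compared, 6 with DESeq2, 4 with limma voom, 1 with library number as a covariate, 0 with a block for each 4 consecutive library numbers and 0 to 5 without 1 library at a time; the cause was not tested. Without knock-in libraries 1 and 2, an alternative chosen after seeing the data, it was 0, with 108 higher and 113 lower at an unadjusted p under 0.05. It was 2 with RLE size factors, a stricter filter, and without mitochondrial, ribosomal RNA and haemoglobin genes. Genes at an unadjusted p under 0.05, 333 in the reported analysis, numbered 900 with no filter, 807 with the 8 libraries, 971 with voom, and 246 to 474 without 1 library at a time. The interaction called 109 genes with no filter, 1 with DESeq2 and 2 with voom, against 0. Bag3, at 0.0013, was at -0.0011 with RLE, -0.0023 with a stricter filter, -0.013 with the covariate, -0.061 with the block, -0.030 without knock-in libraries 1 and 2, and -0.054 to 0.087 without 1 library at a time; no other gene whose fold change is reported changed sign in these alternatives. The median of all genes stayed within 0.01 of 0 in every alternative. Of 29 list medians, 15 changed sign in at least 1 alternative and 14 in none, among them heat shock (0.32 to 0.45) and immediate early genes (0.16 to 0.29). Of the sign changes, 6 alternatives turned the B cell median. No paired analysis was possible because the titles share no replicate numbers between the groups; the block of consecutive library numbers follows their order only and pairs no samples. A planned comparison by miR-150 seed sites was not run, since the mature sequence was not found in the microRNA reference at hand. Wild-type depth of 6024043 to 9351180 counts limits the genes of few counts.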

Other observations

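Beside the chromosome 15 stretch, the 2 remaining windows of neighbouring genes past the limit of 0.4 lay in wild-type library 1, over histone genes on chromosome 13 from Hist1h2ai to Hist1h1d, with a median log2 ratio of -0.41 to the other naive libraries.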
